A study of Homo sapiens with 7 samples.

Results

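Hyaluronan is a long sugar polymer of the extracellular matrix, and the genes described here are those that make it and those whose products bind it: the hyaluronan synthases HAS1, HAS2 and HAS3, the large hyaluronan-binding proteoglycans VCAN (versican) and ACAN (aggrecan), the link proteins HAPLN1 and HAPLN3, the cell surface receptor CD44 and the secreted hyaladherin TNFAIP6. They were chosen by name, as all probe sets that the platform annotation gives to only 1 of these genes, and 8 of the 9 genes had such a probe set, 33 probe sets in all, of 19775 genes with a probe set of their own. HAS1 was not analysed here. All 8 genes passed 100 signal units somewhere on the 7 arrays, so none was below that level throughout, while 3 of the 33 probe sets, 1 of HAS3 and 2 of CD44, were. The list was drawn up with the low HAPLN1 signal of the transduced cells known, so HAPLN1 is described with no test, and counts of called genes cover the other 7 members. Earlier results of these data were known when those 7 were chosen too, so their counts are a description beside the share of all genes.

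The data were 7 Affymetrix whole-genome arrays of human dermal fibroblasts of 1 strain, all at passage 10 and grown in low oxygen. The arrays covered 6 conditions: progerin and FTI, progerin, prelamin A and ZMPSTE24, prelamin A and FTI, prelamin A, and control, with 2 control arrays and 1 array of each other condition. Progerin is the truncated, permanently farnesylated form of lamin A, prelamin A is the farnesylated precursor of lamin A, ZMPSTE24 is the protease that cuts the farnesylated end off prelamin A, and FTI is a farnesyltransferase inhibitor, given at 10 nM for 48 h. According to the methods, progerin and prelamin A came from lentiviral vectors with a CMV promoter and a Flag tag, made in a packaging line of human embryonic kidney cells, and transduced cells were sorted for green fluorescence. One array's title names FTI but no lamin, and its treatment label, which was followed here, puts it in the prelamin A and FTI group. The paper describes GFP-transduced controls for its growth assay and calls the comparison cells of the arrays wild type, while the array labels do not say whether the control cells had received a virus or been sorted, nor whether the 2 control arrays came from separate cultures, so the p-values below may measure technical spread, and transduction and the lamin protein cannot be told apart in a comparison with control. The study asked which genes change with either lamin and which of these changes FTI or ZMPSTE24 turns back.

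The arrays are named here by their labels, and the signals of the introduced genes did not set all of them apart. ZMPSTE24 gave 5779 units on the array labelled prelamin A and ZMPSTE24 and 6120 on the array labelled prelamin A, against 4841 and 4973 units on the controls. The brightest LMNA probe set gave 15240 units on the progerin and FTI array, 16289 on the progerin array, 9488 on the prelamin A and ZMPSTE24 array, 9814 on the prelamin A and FTI array and 8498 on the prelamin A array, against 9300 and 14029 units on the controls. Thus ZMPSTE24 was not higher on the array labelled with it than on the prelamin A array, and LMNA was below both controls on the prelamin A array. Where these probe sets lie on the transcripts, and so whether they can detect the introduced sequences, is not given in the sources used here, and every direction below for prelamin A or ZMPSTE24 rests on the labels.

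Hyaluronan is polymerised at the plasma membrane by the synthases from 2 activated sugars and is pushed out of the cell as it grows. Versican and aggrecan, members of the lectican family, bind it through a globular end, and link proteins such as HAPLN1 hold each lectican on the hyaluronan chain. In dermis, HAS2 is the main synthase of fibroblasts and versican their main large proteoglycan, while aggrecan and HAPLN1 are best known from cartilage. CD44 anchors hyaluronan to the cell, and TNFAIP6 moves protein chains of the inter-alpha-inhibitor family onto it, which crosslinks the matrix.

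Of these genes, 4 lie in 2 neighbouring pairs. In the RefSeq gene order of GRCh38.p14, VCAN on the plus strand and HAPLN1 on the minus strand adjoin on chromosome 5 with 0 genes between them, and ACAN on the plus strand and HAPLN3 on the minus strand adjoin on chromosome 15, again with 0 genes between them. In each pair the 2 genes point towards each other, so their start regions lie at the far ends. The 250 bases upstream of the start are given below, 5′ to 3′ on the gene's own strand, for both pairs and for TNFAIP6, since these members had the widest ranges over the arrays or adjoin a member that did. Capitals mark matches, on either strand, to a GC box (GGGCGG, read as CCGCCC on the other strand), an AP-1 site (TGANTCA) or a CCAAT box (CCAAT, read as ATTGG on the other strand). The sequences are from RefSeq, GRCh38.p14, in which 8 of the 9 members were matched, and HAS2 was not. The windows are chr5:83720856-83721105 on the minus strand for HAPLN1, chr5:83471494-83471743 on the plus strand for VCAN, chr15:88895545-88895794 on the minus strand for HAPLN3, chr15:88803186-88803435 on the plus strand for ACAN and chr2:151357342-151357591 on the plus strand for TNFAIP6.
HAPLN1: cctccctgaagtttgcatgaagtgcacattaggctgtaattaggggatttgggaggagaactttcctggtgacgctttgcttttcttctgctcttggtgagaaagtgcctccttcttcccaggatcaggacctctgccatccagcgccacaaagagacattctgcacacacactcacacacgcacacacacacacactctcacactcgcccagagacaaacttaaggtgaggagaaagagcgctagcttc
VCAN: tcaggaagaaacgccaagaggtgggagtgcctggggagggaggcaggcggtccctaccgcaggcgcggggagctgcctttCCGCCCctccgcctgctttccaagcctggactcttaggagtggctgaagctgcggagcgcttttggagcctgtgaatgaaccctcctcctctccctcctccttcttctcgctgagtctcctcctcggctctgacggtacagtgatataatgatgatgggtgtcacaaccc
HAPLN3: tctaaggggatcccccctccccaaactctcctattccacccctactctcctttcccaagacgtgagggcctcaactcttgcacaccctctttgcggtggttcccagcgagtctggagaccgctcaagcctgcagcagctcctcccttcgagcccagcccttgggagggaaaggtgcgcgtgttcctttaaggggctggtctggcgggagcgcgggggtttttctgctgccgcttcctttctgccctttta
ACAN: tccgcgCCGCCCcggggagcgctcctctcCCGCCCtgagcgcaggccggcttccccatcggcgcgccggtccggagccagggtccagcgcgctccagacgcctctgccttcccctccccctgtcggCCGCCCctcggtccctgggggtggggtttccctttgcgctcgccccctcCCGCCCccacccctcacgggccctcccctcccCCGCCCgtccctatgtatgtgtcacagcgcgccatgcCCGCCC
TNFAIP6: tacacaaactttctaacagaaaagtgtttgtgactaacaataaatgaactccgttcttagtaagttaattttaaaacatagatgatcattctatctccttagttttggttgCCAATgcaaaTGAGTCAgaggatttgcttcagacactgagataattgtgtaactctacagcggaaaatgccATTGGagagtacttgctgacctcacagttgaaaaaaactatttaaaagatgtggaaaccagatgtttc

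The 5 windows differed widely in base composition. The ACAN window was 77.2% G and C, with 28 CpG pairs and 6 GC boxes, and the TNFAIP6 window was 34.4% G and C, with 2 CpG pairs, 1 AP-1 site that starts 129 bases before the start of the gene, and CCAAT boxes at 139 and 68 bases. Of 35116 promoters of the same length, 42.6% held a GC box, 6.57% an AP-1 site and 32.0% a CCAAT box. The HAPLN1 and HAPLN3 windows held none of these motifs, with G and C at 50.8% and 60.4% and 5 and 11 CpG pairs, and the VCAN window held 1 GC box at 170 bases. A TATA box (TATAAA, either strand), present in 10.7% of all promoters, was found in none of the 5 windows. A match of letters is a description of the window, not a site shown to be bound.

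HAPLN1 had a high signal on both control arrays and a low one on all 5 transduced arrays. The probe set of highest mean signal gave 46.6 units on the progerin and FTI array, 32.8 on the progerin array, 49.0 on the prelamin A and ZMPSTE24 array, 20.5 on the prelamin A and FTI array and 23.03 on the prelamin A array, against 1092 and 1324 units on the controls. The groups did not overlap, and all 5 transduced arrays were below both controls, an order that 12.3% of all genes tested had. The lower control was 22.3 times the highest transduced array. This HAPLN1 split is the pattern that was known when the gene was included, so it carries no test. On the scale of log2(signal + 16), the difference of HAPLN1 from control was -4.64 for progerin and -4.96 for prelamin A (SE 0.34 each), and its range over the 7 arrays was wider than that of 99.7% of the 12726 genes tested. In bulk RNA such as this, fewer expressing cells and less RNA per cell cannot be told apart.

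The other 3 HAPLN1 probe sets showed the same split. The second gave 45.6 to 58.3 units over the transduced arrays, against 729 and 1296 units on the controls. The next gave 6.58 to 77.7 units, against 459 and 973 units, and the last gave 1.83 to 24.3 units, against 291 and 493 units. The lower control was 12.5, 5.91 and 11.95 times the highest transduced array in these 3 probe sets. All 4 probe sets were below 100 units on every transduced array and above it on both controls.

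Neither treatment brought HAPLN1 back to the control level. Relative to the untreated line, the log2 difference was 0.36 for progerin and FTI against progerin, -0.10 for prelamin A and FTI against prelamin A, and 0.73 for prelamin A and ZMPSTE24 against prelamin A (SE 0.39 each). Relative to control, the log2 difference of HAPLN1 was -4.28 with progerin and FTI, -5.06 with prelamin A and FTI and -4.23 with prelamin A and ZMPSTE24. The 4 probe sets did not order the transduced arrays alike: the first was highest on the prelamin A and ZMPSTE24 array and another was highest on the progerin and FTI array and lowest on the prelamin A and ZMPSTE24 array. All of these values are below 100 units, and the difference from control depends on the pseudocount: with a pseudocount of 1 it was -5.15 for progerin and -5.65 for prelamin A, and with a pseudocount of 64 it was -3.71 for progerin and -3.86 for prelamin A.

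**Figure D1:**
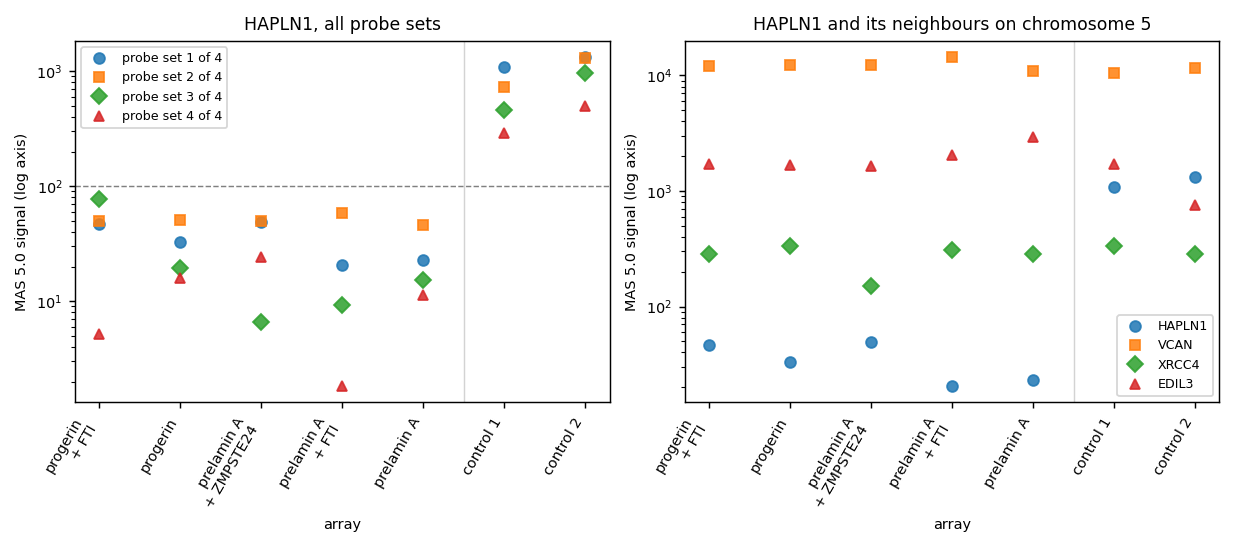
MAS 5.0 signal on each of the 7 arrays, on a log axis, of the 4 HAPLN1 probe sets (left, with a dashed line at 100 units) and of the HAPLN1 probe set of highest mean signal with those of VCAN, XRCC4 and EDIL3, its neighbours on chromosome 5 (right); each point is 1 array and the grey line sets the controls apart. All 4 HAPLN1 probe sets are below 100 units on the 5 transduced arrays and between 291 and 1324 units on the controls, and VCAN stays between 10576 and 14387 units.

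A gene was called where its fold change exceeded 2 with an unadjusted p under 0.05 in limma, the looser of the cutoffs in the study, whose methods also name a p of 0.01 for a different score. In the model of 6 conditions, the 2 controls give the only residual degree of freedom, and no gene of the 12726 had an adjusted p under 0.05 in any of its 11 comparisons. The smallest adjusted p of a member was 0.173, for ACAN in prelamin A and ZMPSTE24 cells against control. Every call of a member therefore rests on the unadjusted p, and the share of all genes called stands beside the first count of members in each comparison.

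The genes around HAPLN1 had no such split. VCAN, which adjoins it, gave 11954 units on the progerin and FTI array, 12210 on the progerin array, 12367 on the prelamin A and ZMPSTE24 array, 14387 on the prelamin A and FTI array and 10938 on the prelamin A array, against 10576 and 11707 units on the controls. VCAN was called in 0 of the 13 comparisons of the fits. XRCC4, a DNA repair gene that lies beyond VCAN, and EDIL3, which encodes a secreted integrin ligand and lies beyond HAPLN1, were also not called against control with either lamin. The log2 difference of XRCC4 was 0.12 for progerin and -0.11 for prelamin A (SE 0.33), and that of EDIL3 was 0.54 for progerin and 1.34 for prelamin A (SE 0.57), with the 2 controls at 1722 and 760 units.

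Markers of other cells were also compared between the transduced and control arrays. The fibroblast list was high throughout: 10 of 10 markers were at 100 units or more and 9 were at 1000 units or more on every array. Of the list for the human embryonic kidney cells in which virus is produced (INA, NEFL, NEFM and LIN28B), 3 of 4 genes reached 100 units, and their summed signal was 456 to 893 units on the transduced arrays, against 105 and 75.2 units on the controls. INA, a neuronal filament protein, gave 270 to 545 units, against 12.8 and 5.20 units, while LIN28B was at most 32.5 units. The endothelial list summed to 363 to 503 units, against 270 and 192 units, with TEK, an angiopoietin receptor, at 167 to 344 units, against 23.5 and 2.19 units, and CDH5 at most 35.7 units. The leukocyte list summed to 281 to 641 units, against 240 and 134 units, with CD14 at 198 to 575 units, against 87.2 and 55.3 units, and PTPRC at most 55.5 units. The keratinocyte list summed to 5051 to 6581 units, against 10745 and 7614 units, nearly all of it from KRT10, while KRT5 and KRT14 were at most 12.3 units. The melanocyte list summed to 213 to 395 units, against 205 and 189 units, with MLANA at most 72.6 units. The sums of these lists, other than the fibroblast sum, lay wholly above or wholly below both controls on the transduced arrays. The fibroblast sum was 224254 to 257657 units, against 283386 and 257590 units, and overlapped the lower control on the prelamin A array only. Not every marker in these lists was set apart from the controls. PECAM1 of the endothelial list and CD3E of the leukocyte list overlapped the controls. INA, TEK and CD14 were above both controls on all 5 transduced arrays, and they passed 100 units only there. Of all genes tested, 11.9% had this order and 12.3% the reverse one. MITF, the only melanocyte marker to reach 100 units, was below both controls on the progerin array (79.6 units) and the progerin and FTI array (76.6 units). It was above both on the other transduced arrays. The part of these lists in the HAPLN1 split was not tested.

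HAPLN3 is the second link protein gene with signal in these cells, and it too was lower on all 5 transduced arrays than on both controls, by far less. It gave 391 units on the progerin and FTI array, 443 on the progerin array, 201 on the prelamin A and ZMPSTE24 array, 538 on the prelamin A and FTI array and 544 on the prelamin A array, against 906 and 774 units on the controls. This order, all 5 transduced arrays below both controls, held for 12.3% of all genes tested, and among the 7 members other than HAPLN1 only HAPLN3 had it. The log2 difference from control was -0.90 for progerin and -0.61 for prelamin A (SE 0.33), neither called, and -1.98 in prelamin A and ZMPSTE24 cells (SE 0.33, unadjusted p = 0.00273), which was called.

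Of the 13 comparisons, the array labelled prelamin A and ZMPSTE24 against the array labelled prelamin A held the largest number of called members. Relative to prelamin A cells, ACAN and HAPLN3 were lower and HAS2 was higher, 3 of the 7 members, where 5.04% of all genes were called (2.18% higher and 2.85% lower). HAPLN3 fell by 1.37 on the log2 scale (SE 0.38, unadjusted p = 0.0191, adjusted p = 0.798 in limma). It was also lower than in prelamin A and FTI cells, by a log2 difference of -1.36 (SE 0.38, unadjusted p = 0.0199), so the 3 prelamin A arrays split into 2 of like level and 1 low one.

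ACAN, the cartilage proteoglycan, had the widest range of the members after HAPLN1 and TNFAIP6, wider than in 96.5% of genes. Its brightest probe set gave 440 units on the progerin and FTI array, 721 on the progerin array, 244 on the prelamin A and ZMPSTE24 array, 1436 on the prelamin A and FTI array and 1801 on the prelamin A array, against 1642 and 1467 units on the controls. The controls, prelamin A and prelamin A and FTI arrays therefore formed a high set and the other 3 arrays a low one. Within the high set, prelamin A differed from control by 0.21 on the log2 scale (95% interval -0.65 to 1.08), and prelamin A and FTI differed from prelamin A by -0.32 (95% interval -1.32 to 0.68).

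In prelamin A and ZMPSTE24 cells ACAN fell by 2.81 relative to prelamin A cells (SE 0.38, unadjusted p = 0.00108, adjusted p = 0.653 in limma), a 6.99-fold difference. It was also lower there than in prelamin A and FTI cells, by -2.48 (SE 0.38, unadjusted p = 0.0018), and than in control cells, by -2.59 (SE 0.33, unadjusted p = 0.000818). The next 2 ACAN probe sets gave the same calls in these comparisons. One of them gave 245 units on the prelamin A and ZMPSTE24 array, 1255 on the prelamin A and FTI array and 1475 on the prelamin A array, against 1279 and 1133 units on the controls. The other gave 154, 1232 and 1295 units on these arrays in the same order, against 1387 and 1037 units on the controls, and the dimmest probe set reached 100 units only on the prelamin A array, with 103 units.

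In progerin cells ACAN was lower than control by -1.09 on the log2 scale (SE 0.33, unadjusted p = 0.0241, adjusted p = 0.625 in limma), and 1 of the 7 members was called there, against 5.8% of all genes (2.04% lower). A count of 1 cannot be set apart from that share. ACAN was lower still in progerin and FTI cells, by -1.78 relative to control (SE 0.33, unadjusted p = 0.00386), but the difference between progerin and FTI cells and progerin cells, -0.69 (SE 0.38), was not called. Between the 2 lines, with 1 array each, ACAN was higher in prelamin A than in progerin cells, by 1.30 (SE 0.38, unadjusted p = 0.0214, adjusted p = 0.651 in limma). In this comparison 2 of the 7 members (ACAN higher, HAS2 lower) and 7.05% of all genes were called (3.59% higher and 3.46% lower). The same 3 probe sets were called in progerin cells and in progerin and FTI cells against control, and between the 2 lines.

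The genes on either side of the ACAN and HAPLN3 pair are ISG20, an interferon-induced exonuclease, and MFGE8, a secreted glycoprotein. ISG20 gave 70.3 to 121 units on the transduced arrays, against 297 and 182 units on the controls, so that it shared with HAPLN3 the order of all 5 transduced arrays below both controls. It was called lower in prelamin A cells than in control, by -1.20 (SE 0.42, unadjusted p = 0.0393), where HAPLN3 was not called. MFGE8 was called lower there too, by -1.21 (SE 0.39, unadjusted p = 0.03). In prelamin A and ZMPSTE24 cells against prelamin A cells, where ACAN and HAPLN3 were called lower, ISG20 differed by -0.33 (SE 0.48) and MFGE8 by 0.05 (SE 0.45), and neither was called.

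As ACAN and HAPLN1 are cartilage genes, a chondrocyte list was read beside them. COL2A1, the main cartilage collagen, was at most 60.4 units and COL9A1 at most 5.998 units. SOX9, a transcription factor that activates cartilage matrix genes, gave 149 units on the progerin and FTI array, 185 on the progerin array, 141 on the prelamin A and ZMPSTE24 array, 303 on the prelamin A and FTI array and 822 on the prelamin A array, against 70.7 and 236 units on the controls. It was called higher in prelamin A cells than in control, by 2.50 (SE 0.70), and lower in prelamin A and ZMPSTE24 cells than in prelamin A cells, by -2.41 (SE 0.81). The summed list was 272 to 1040 units on the transduced arrays, against 358 and 423 units on the controls, and its part in the ACAN result was not tested.

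HAS2, the main synthase of fibroblasts, was lowest in prelamin A cells. It gave 12000 units on the progerin and FTI array, 11753 on the progerin array, 13028 on the prelamin A and ZMPSTE24 array, 7905 on the prelamin A and FTI array and 4233 on the prelamin A array, against 13226 and 9899 units on the controls. The prelamin A array was thus the lowest, the prelamin A and FTI array the next, and the other 5 arrays lay together. The second probe set gave 8537, 7466, 6225, 5022 and 2420 units in that order of arrays, against 8063 and 5313 units on the controls, with the same 2 arrays lowest.

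Relative to control, HAS2 fell by 1.43 in prelamin A cells on the log2 scale (SE 0.36, unadjusted p = 0.0133, adjusted p = 0.264 in limma), and the second probe set also fell by 1.43. It was the only member of the 7 called there, against 10.3% of all genes (4.02% lower), so a count of 1 again cannot be set apart from the background. In progerin cells HAS2 differed from control by 0.04 (95% interval -0.92 to 1.00). Between the 2 lines, with 1 array each, HAS2 was lower in prelamin A than in progerin cells by -1.47 (SE 0.42, unadjusted p = 0.0202, adjusted p = 0.651 in limma), with both probe sets called.

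With ZMPSTE24, HAS2 was higher than in prelamin A cells by 1.62 (SE 0.42, unadjusted p = 0.0144, adjusted p = 0.749 in limma), and it differed from control by 0.19 (95% interval -0.78 to 1.15). With FTI it was higher by 0.90 (SE 0.42, unadjusted p = 0.0904), which was not called. HAS2 was 0.72 higher with ZMPSTE24 than with FTI (SE 0.42, 95% interval -0.39 to 1.83, unadjusted p = 0.152), so the 2 treatments were not shown to differ. FTI changed HAS2 in progerin cells by 0.03 (SE 0.42), and the difference between its effects in the 2 lines was -0.87 (SE 0.59, unadjusted p = 0.208). The ratio of 3′ to 5′ signal of β-actin, a sign of RNA quality, was highest on the prelamin A array at 1.62 and was 1.26 on the prelamin A and FTI array and 1.498 on the prelamin A and ZMPSTE24 array, against 1.24 and 1.06 on the controls. The same ratio of GAPDH was 0.861, 0.902 and 0.892 on these 3 arrays in that order, against 0.879 and 0.943 on the controls. The part of RNA quality in the HAS2 result was not tested.

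HAS3, the synthase that makes shorter chains in other tissues, was near the limit of 100 units. It gave 89.6 units on the progerin and FTI array, 77.7 on the progerin array, 163 on the prelamin A and ZMPSTE24 array, 145 on the prelamin A and FTI array and 152 on the prelamin A array, against 184 and 66.4 units on the controls. The 2 controls bracketed all 5 transduced arrays, and HAS3 was called in none of the 13 comparisons. Its second probe set was below 100 units throughout, at 42.3 to 74.1 units on the transduced arrays, against 18.6 and 8.31 units on the controls, and was not tested.

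**Figure D2:**
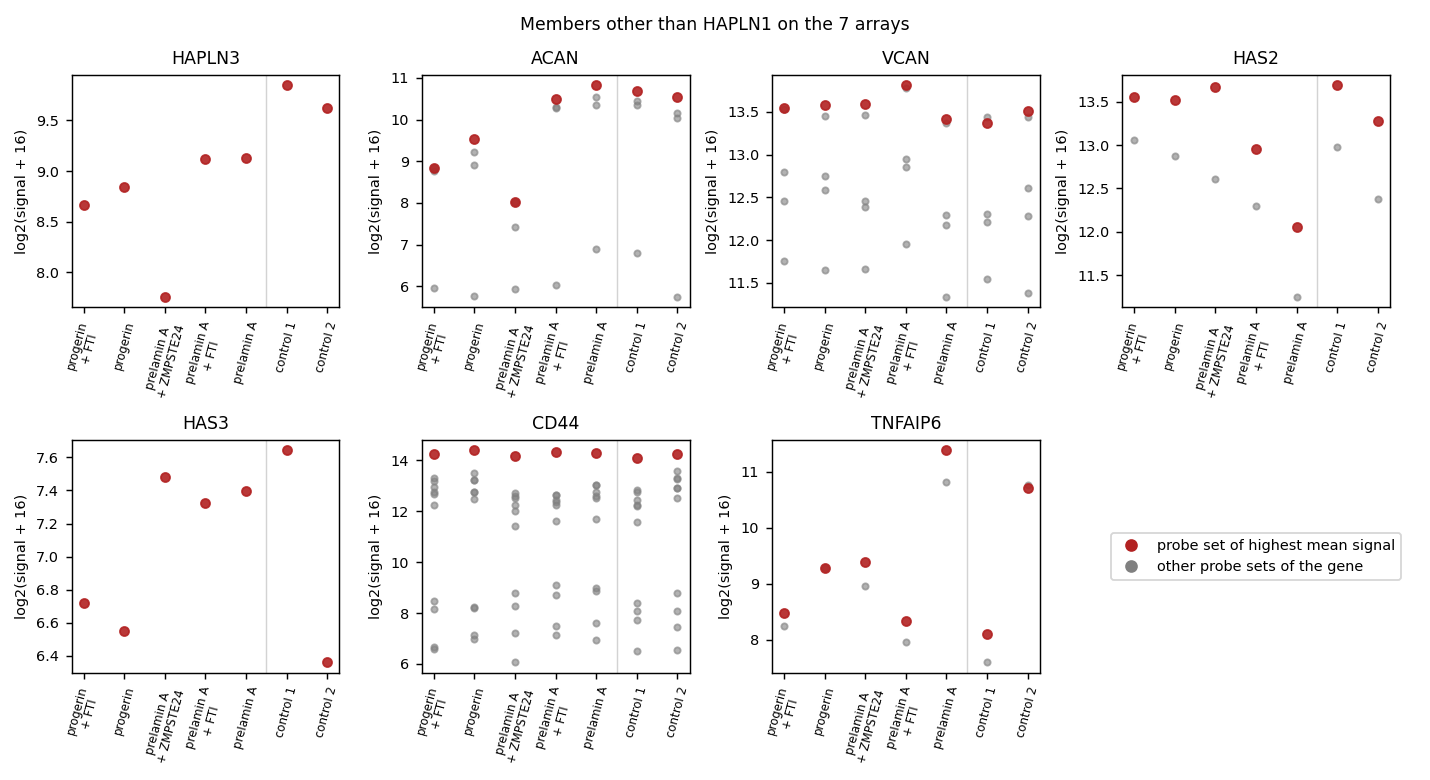
log2(signal + 16) on each of the 7 arrays for the members other than HAPLN1, 1 panel per gene with its own vertical axis. Red points are the probe set of highest mean signal and grey points the gene's other probe sets, without the 3 that were below 100 units on every array. ACAN is low on the progerin, progerin and FTI, and prelamin A and ZMPSTE24 arrays, HAS2 is lowest on the prelamin A array at 4233 units, and the 2 controls of TNFAIP6 stand at 259 and 1665 units.

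TNFAIP6, which is induced by inflammatory cytokines in many cells, varied most between the controls. Its brighter probe set gave 341 units on the progerin and FTI array, 604 on the progerin array, 651 on the prelamin A and ZMPSTE24 array, 307 on the prelamin A and FTI array and 2654 on the prelamin A array, against 259 and 1665 units on the controls. The prelamin A array was highest, but the second control lay above the other 4 transduced arrays and the first below all of them. The second probe set had the prelamin A array at 1791 units and the controls at 178 and 1720 units.

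Relative to control TNFAIP6 was 1.97 higher in prelamin A cells (SE 1.11, 95% interval -0.99 to 4.94), which was not called, and the value was 0.67 without control 1 and 3.28 without control 2. Relative to prelamin A cells it was -3.05 with FTI (SE 1.29, unadjusted p = 0.0697) and -2.00 with ZMPSTE24 (SE 1.29, unadjusted p = 0.187). Neither was called in the model as fixed, although the FTI difference was called with a pseudocount of 64 or with an intensity trend in the spread. Over all 12726 genes, 1181 had a gap of more than 2-fold between control 1 and control 2.

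Versican and CD44 had bright probe sets, and the brightest of each gene was steady over the arrays. VCAN ranked above 97.2% of genes in mean signal and above only 13.0% in range, and CD44 above 98.7% in mean signal and above only 4.09% in range. All 5 VCAN probe sets were slightly higher than control in progerin cells, by 0.01 to 0.34 on the log2 scale, and slightly lower in prelamin A cells, by -0.16 to -0.02. In prelamin A and FTI cells all 5 were higher than control, by 0.34 to 0.60, and none of these differences was called.

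CD44 gave 19475 units on the progerin and FTI array, 21533 on the progerin array, 18477 on the prelamin A and ZMPSTE24 array, 20349 on the prelamin A and FTI array and 20071 on the prelamin A array, against 17418 and 19583 units on the controls. Relative to control it differed by 0.22 for progerin (95% interval -0.65 to 1.09) and by 0.12 for prelamin A (95% interval -0.75 to 0.99). The next 6 of its 13 probe sets were less even. In each of them control 2 was highest, then progerin, progerin and FTI, and prelamin A, and control 1 was below all 4. One of these 6 gave 11514 units on the progerin array and 8418 on the prelamin A array, against 6878 and 12285 units on the controls. None of the 11 CD44 probe sets tested was called in any of the 13 comparisons.

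**Figure D3:**
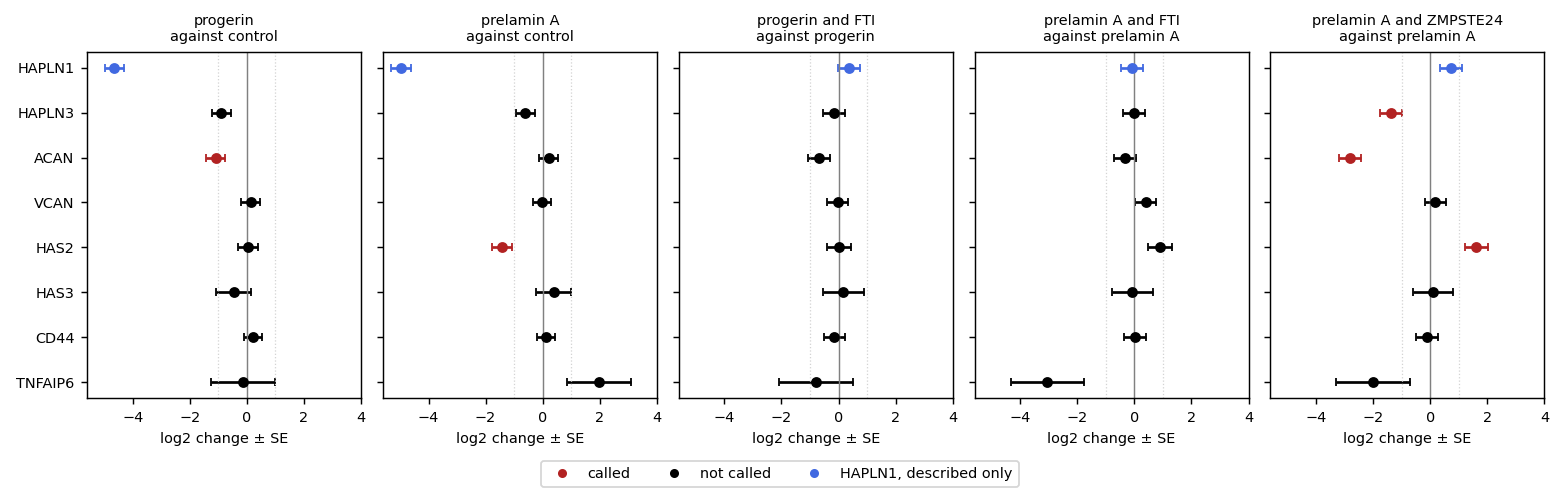
Log2 difference of log2(signal + 16) between 2 conditions, with its standard error, for the 8 members with a probe set in the 5 main comparisons; red marks a called gene, black a gene not called and blue HAPLN1, which was not tested, and dotted lines mark a 2-fold change. HAPLN1 stands at -4.64 and -4.96 in the first 2 panels, and the last panel holds the 3 members called after ZMPSTE24.

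No member was called with FTI against its untreated line, although TNFAIP6 differed by more than 2-fold in prelamin A cells. In progerin cells with FTI against progerin cells, 0 of the 7 members were called, against 1.45% of all genes, and in prelamin A cells with FTI against prelamin A cells 0 of 7 were called, against 2.81%. The median log2 difference of the 7 members was -0.14 and -0.01 in these comparisons, against -0.01 and -0.01 over all genes. In a test of the difference between the effects of FTI in the 2 lines, 0 of the 7 members were called, against 1.84% of all genes. The 3 treated conditions were also set against control: 2 of 7 members, ACAN and HAPLN3, were called lower in progerin and FTI cells, against 5.7% of all genes (2.57% lower), 0 of 7 were called in prelamin A and FTI cells, against 9.69%, and the same 2 were lower in prelamin A and ZMPSTE24 cells, against 8.38% (3.6% lower). These comparisons share the control arrays. Between the 2 treatments of the prelamin A line, ACAN and HAPLN3 were lower with ZMPSTE24 than with FTI, against 3.93% of all genes called (2.16% lower).

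A second model pooled the arrays into 3 states, with 4 residual degrees of freedom and calls at an adjusted p under 0.05. Of the 7 members, 0 were called in the lamin state (progerin and prelamin A) against control, where 0.558% of genes were called, and 0 in the treated state against control, where 1.08% were. By unadjusted p the treated state held 1 member under 0.05, HAPLN3, with a log2 difference of -1.22 (SE 0.39, unadjusted p = 0.0176, adjusted p = 0.239 in limma). HAPLN1 was lower by -4.80 in the lamin state (SE 0.33) and by -4.52 in the treated state (SE 0.30), again with no test.

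Of 7 enzymes listed that make the sugars for hyaluronan, 5 were tested, and 2 of these were called lower in prelamin A cells, where 10.3% of all genes were called (4.02% lower), and 0 in progerin cells. All 5 had a signal below the control mean with progerin, and 4 of 5 with prelamin A, where GFPT1, the first enzyme of hexosamine synthesis, was higher (6505 units, against 5299 and 5984 units on the controls) and not called. UAP1, which makes UDP-N-acetylglucosamine, gave 4667 units on the prelamin A array, against 10742 and 10773 units on the controls, a log2 difference of -1.20 (SE 0.32, unadjusted p = 0.0159). GNPNAT1, an acetyltransferase earlier in the same pathway, gave 1191 units, against 3255 and 3071 units, a log2 difference of -1.40 (SE 0.32, unadjusted p = 0.00938). On the progerin array UAP1 gave 8057 units and GNPNAT1 2058 units. UAP1, GNPNAT1 and UGP2 were below both controls on all 5 transduced arrays, an order that 12.3% of genes had. The median over the 5 enzymes was -0.52 with prelamin A and -0.42 with progerin, against -0.02 and 0.01 over all genes.

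None of these enzymes was called with a treatment against its untreated line, and whether they differ from HAS2 in this was not tested. In prelamin A and FTI cells UAP1 gave 5497 units and GNPNAT1 1521 units, and in prelamin A and ZMPSTE24 cells UAP1 gave 8818 units and GNPNAT1 1920 units. Both genes stayed below both controls on these arrays, and GNPNAT1 was called lower in prelamin A and FTI cells than in control, by -1.05 (SE 0.32), where 9.69% of all genes were called. UGDH, which makes UDP-glucuronic acid, gave 3690 units on the prelamin A array, against 6385 and 4420 units on the controls, and was not called.

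**Figure D4:**
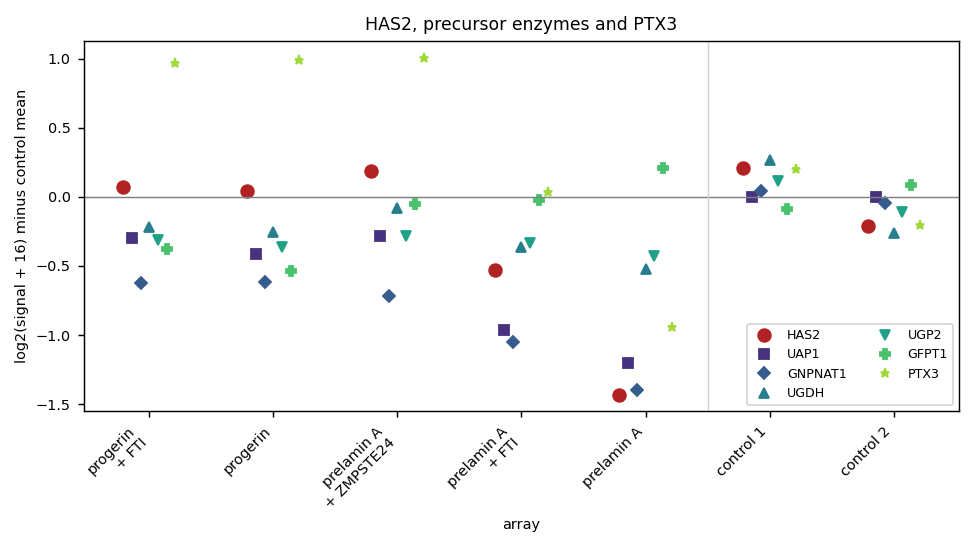
log2(signal + 16) minus the mean of the 2 controls on each of the 7 arrays for HAS2, 5 enzymes that make its sugar substrates and PTX3, a matrix protein that binds TNFAIP6; each point is 1 array. HAS2, UAP1 and GNPNAT1 are lowest on the prelamin A array, at differences of -1.43, -1.20 and -1.40, and HAS2 is 0.19 above the control mean on the prelamin A and ZMPSTE24 array.

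Among genes of hyaluronan breakdown, 6 of 10 were tested, and 1 was called with prelamin A against control (10.3% of all genes) and 1 with ZMPSTE24 against prelamin A (5.04%). HYAL2, a membrane-anchored hyaluronidase, was called higher in prelamin A cells, with 1068 units against 443 and 473 units on the controls, a log2 difference of 1.20 (SE 0.32). On the other transduced arrays HYAL2 gave 716 to 918 units, so all 5 were above both controls, an order that 11.9% of genes had. CEMIP2, a cell surface hyaluronidase, was called lower in prelamin A and ZMPSTE24 cells than in prelamin A cells, with 146 units against 420 units, a log2 difference of -1.43 (SE 0.38). CEMIP, the main secreted hyaluronan-depolymerising protein of skin fibroblasts, gave 15946 to 24106 units on the transduced arrays, against 26974 and 17791 units on the controls, and was not called.

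Of 5 other hyaluronan receptors 3 were tested. STAB1, a scavenger receptor, was dim, at 51.5 units on the progerin and FTI array, 44.3 on the progerin array, 70.1 on the prelamin A and ZMPSTE24 array, 66.1 on the prelamin A and FTI array and 12.4 on the prelamin A array, against 122 and 97.2 units on the controls. It passed 100 units only on 1 control, so its values are given with no test. They were lower on all 5 transduced arrays than on both controls, an order that 12.3% of genes had, and lowest on the prelamin A array. HMMR, a receptor that is also a mitotic spindle protein, gave 1824 units in progerin and 662 units in prelamin A cells, against 1330 and 611 units on the controls, and was not called, nor was LAYN.

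Of 13 other lecticans, link proteins and partners, 6 were tested. ITIH5, a heavy chain of the inter-alpha-inhibitor family, gave 222 units on the progerin and FTI array, 205 on the progerin array, 310 on the prelamin A and ZMPSTE24 array, 283 on the prelamin A and FTI array and 466 on the prelamin A array, against 22.2 and 44.3 units on the controls. All 5 transduced arrays were above both controls, an order that 11.9% of genes had. ITIH5 passed 100 units only on the transduced arrays, so no test is given for it. ITIH4, another heavy chain, passed 100 units only on the prelamin A array, with 218 units, and on the prelamin A and ZMPSTE24 array, with 121 units, against 76.1 and 20.1 units on the controls, and likewise has no test.

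PTX3, which binds TNFAIP6 in the crosslinked hyaluronan matrix, was lowest on the prelamin A array, as HAS2 was, and was not called against control there. It gave 23520 units on the progerin and FTI array, 23941 on the progerin array, 24176 on the prelamin A and ZMPSTE24 array, 12326 on the prelamin A and FTI array and 6251 on the prelamin A array, against 13839 and 10442 units on the controls. It was called higher in prelamin A and ZMPSTE24 cells than in prelamin A cells, by 1.95 (SE 0.42), where 5.04% of all genes were called, and lower in prelamin A than in progerin cells, by -1.93 (SE 0.42), where 7.05% were. BCAN, a brain lectican, gave 34.1 units on the progerin and FTI array and 89.1 units on the progerin array. On the prelamin A and ZMPSTE24, prelamin A and FTI, and prelamin A arrays it gave 142, 174 and 198 units. The controls gave 152 and 123 units.

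Of 7 proteases that cut versican and aggrecan, 4 were tested. ADAMTS1 was called lower in prelamin A cells than in control (-1.08, SE 0.37), where 10.3% of all genes were called. It was called higher with FTI than in prelamin A cells (1.53, SE 0.43), where 2.81% were. It gave 9408 units on the prelamin A and FTI array and 3245 on the prelamin A array, against 5885 and 8084 units on the controls. ADAMTS5, a main aggrecanase of cartilage, gave 14772 units on the prelamin A and ZMPSTE24 array and 9353 on the prelamin A and FTI array, against 5083 and 2663 units on the controls, and was called higher than control in both (2.00 with ZMPSTE24 and 1.34 with FTI, SE 0.50). Of all genes, 8.38% were called with ZMPSTE24 and 9.69% with FTI in these comparisons. ADAMTS5 was not called in progerin or prelamin A cells. ADAMTS9 was dim, at 20.4 to 100.0 units on the transduced arrays, against 80.8 and 108 units on the controls. All 8 partners of CD44 were tested, and only ANK2, an ankyrin that ties membrane proteins to spectrin, was called. It was higher in progerin cells than in control (1.25, SE 0.33), where 5.8% of all genes were called. It was also higher with ZMPSTE24 than in prelamin A cells (1.59, SE 0.38), where 5.04% were. It gave 2307 units in progerin cells, 2325 in prelamin A and ZMPSTE24 cells and 760 in prelamin A cells, against 1010 and 908 units on the controls.

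The genes whose profile was nearest to each member were found by the root mean square difference of log2 values, each gene centred on its own mean, over the 7 arrays. Nearest to HAPLN1 were SCRG1 (0.53), LINC02086 (0.61) and CH25H (0.64). SCRG1, a small secreted protein of mesenchymal cells, gave 106 to 188 units on the transduced arrays, against 1432 and 2989 units on the controls, and CH25H, which makes an oxysterol, gave 131 to 217 units, against 1277 and 3875 units. Nearest to HAPLN3 was CXCL12 (0.15), a chemokine of stromal cells, with 4166 units on the prelamin A and ZMPSTE24 array and 10527 on the prelamin A array, against 15605 and 14275 units on the controls.

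Nearest to ACAN were SORBS2 (0.36), an actin-associated adaptor, CEND1 (0.36) and SERTAD4 (0.39), and its neighbour HAPLN3 was the 10th nearest (0.51), while ACAN was the 899th nearest to HAPLN3. In the other pair, VCAN was the 8276th nearest to HAPLN1 (2.19). Nearest to HAS2 were TXNIP (0.14), an inhibitor of thioredoxin, ARSJ (0.16) and NFIB (0.17), a transcription factor. TXNIP gave 10489 units on the prelamin A and ZMPSTE24 array, 5470 on the prelamin A and FTI array and 3440 on the prelamin A array, against 9018 and 8848 units on the controls. Nearest to TNFAIP6 were CXCL5 (0.50), a neutrophil chemokine, GDF15 (0.52), a stress-induced cytokine, and DLK1 (0.59). These are likenesses over 7 arrays of 1 strain, given as a description.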

How the data were processed

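Per the labels and the methods, fibroblast RNA was hybridised to 7 Affymetrix arrays of 1 colour. The authors' MAS5 software gave the intensity of each probe set that was deposited. The methods state a scaling target of 250, whereas the mean without the outer 2% of probe sets was 500.1 on every array, so the units are those of the files. Of 54675 probe sets, the platform annotation gave 1 gene to 41091, several to 1801 and none to 11721, and 62 controls were left out. Probe sets below 100 on every array were not tested, for a gene with several left the one with the greatest mean signal was used, and values were taken as log2(signal + 16), a scale that understates changes of dim genes.

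The 12726 genes were fitted with limma 3.58.1 in R 4.3.3, in a model of 6 conditions (1 residual degree of freedom) and a model of 3 states (4 residual degrees of freedom), with Benjamini-Hochberg adjustment over all genes. The fits were tested on simulated data. Of the 13 comparisons, 5 were added after values were seen. With 1 array per condition other than control, the number of arrays limits the precision. The members, the lists and the named genes (each member, listed genes past the call, and the 3 nearest profiles) were chosen with earlier results of these data known. Alternatives were other pseudocounts, filters, scalings, thresholds and rules for probe sets, and leaving out each array of a state.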

Additional observations from a re-analysis of the deposited data

How the results depend on the processing

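With calls at an adjusted p under 0.05 in limma, the count of called members was 0 in place of 1 in progerin cells against control, in place of 1 in prelamin A cells against control, in place of 3 in prelamin A and ZMPSTE24 cells against prelamin A cells, and in place of 2 in progerin and FTI cells against control, prelamin A and ZMPSTE24 cells against control, prelamin A against progerin cells, and prelamin A and ZMPSTE24 against prelamin A and FTI cells. With an unadjusted p under 0.01 it was 0 in the first 2 of these and in prelamin A against progerin cells, and 1 in prelamin A and ZMPSTE24 cells against prelamin A cells, in progerin and FTI cells against control and in prelamin A and ZMPSTE24 against prelamin A and FTI cells. A pseudocount of 64 gave 1 call, TNFAIP6, in prelamin A and FTI cells against prelamin A cells, as did an intensity trend, and it left 1 call in progerin and FTI cells against control, since HAPLN3 then differed by -0.99. No called member changed direction under the alternatives run. Leaving out each array in turn gave 0 to 0 calls in both comparisons of the 3-state model. In the model of 6 conditions, leaving out a control leaves no residual degree of freedom, so these are values with no test: HAS2 in prelamin A cells differed from control by -1.22 without control 1 and by -1.64 without control 2. In progerin cells, where neither was called, HAS2 differed by 0.25 and -0.17 and TNFAIP6 by -1.44 and 1.17 in the same 2 settings. No paired analysis was possible because only the control arrays carry replicate numbers. A fit with the line, progerin or prelamin A, as a block was not one of replicate pairs, and it too gave 0 calls in the lamin state.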

Other observations

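The profiles nearest to VCAN, CD44 and HAS3 are given here as a description. With the measure used, a gene of small range has only genes of small range near it. The 3 profiles nearest to VCAN, by the root mean square log2 difference over 7 arrays, were those of PHB1 (0.05), ARIH1 (0.06) and HARS1 (0.06), and those nearest to CD44 were DFFA (0.04), HSP90AB1 (0.04) and UBXN2A (0.05). Nearest to HAS3 were ZNF24 (0.08), CTBP1 (0.08) and ZNF736 (0.11). CD44 itself was the 180th nearest to VCAN (0.12).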
